A study of Mus musculus with 29 samples.

Results

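The mGluR6-TRPM1 ON cascade is the set of proteins by which ON bipolar cells of the retina turn the glutamate released by photoreceptors in darkness into a response to light. Its 10 genes, Grm6, Trpm1, Nyx, Gpr179, Lrit3, Rgs7, Rgs11, Gnao1, Gng13 and Pcp2, were taken by symbol from an RNA-seq table of 24062 mouse genes, and all 10 were found. They were described in bipolar cells (BC) of 3 sorts and in rod and blue cone photoreceptors, with 3 RNA-seq libraries per population. Open chromatin near the same genes was read from a table of 110715 ATAC-seq regions of 200 bases, with 2 libraries per population.

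The pan-BC libraries came from Otx2-GFP+/- mice, in which GFP is fused to the endogenous Otx2 gene, at postnatal days 43 to 47. Both ON-BC and OFF-BC were sorted from Otx2-GFP+/-; Grm6-YFP+/+ mice at postnatal days 42 to 48, in which a Grm6 promoter drives YFP. YFP-positive bipolar cells were collected as ON-BC in a single sort, and YFP-negative bipolar cells were sorted again to give OFF-BC. Rods came from Nrl-eGFP mice and blue cones from Nrl-eGFP;NrlKO mice, all at postnatal day 56. The blue cones are therefore Nrl knockout photoreceptors that stand in for S-opsin cones, and green cones from Opn1mw-GFP mice entered the ATAC-seq comparison only. For ATAC-seq the labels give the pan-BC cells the same genotype, Otx2-GFP+/-; Grm6-YFP+/+, as ON-BC and OFF-BC, whereas the study's own sample list gives them no Grm6-YFP. Animals were pooled within libraries, and by the study's account the ON cone bipolar type BC5D may lie outside both gates. Bipolar cells and photoreceptors also differed in age and in the study they were prepared for, and these cannot be told apart from cell class.

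RNA-seq libraries held 12329548 to 26266746 reads assigned to genes, and ATAC-seq libraries held 4176776 to 12345845 reads in regions. The 4 ON bipolar markers (Isl1, Prkca, Car8 and Vstm2b) summed to between 48226 and 54175 normalized counts in ON-BC, and the 5 OFF markers (Tacr3, Grik1, Esam, Bhlhe22 and Erbb4) to between 44131 and 66685 in OFF-BC. OFF-BC replicate 3 stood apart. Its ON markers summed to 2679 against 693 and 390 in the other OFF-BC libraries, its 7 rod markers to 17891 against 4245 and 3580, and its 7 cone markers to 92698 against 24497 and 22618. This library also had the highest OFF-BC value of 9 of the 10 cascade genes, so values with and without it are given below. In sorted populations, fewer cells of a type and less RNA per cell cannot be told apart.

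In darkness glutamate binds mGluR6, which activates the G protein Go and keeps the cation channel TRPM1 closed. Light lowers glutamate release, Go is switched off by RGS proteins, and TRPM1 opens and depolarizes the cell. Nyctalopin, LRIT3 and GPR179 assemble the receptor, the channel and the RGS proteins at the dendritic tip. OFF bipolar cells use ionotropic glutamate receptors in place of this cascade. Loss of several of these genes causes congenital stationary night blindness.

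Chromatin near 7 of the genes carried the results below, and 9 of the regions are shown here from the RefSeq GRCm38.p6 genome, on the strand of the gene, with exonic bases left out. The printed regions of Grm6, Trpm1, Gpr179, Nyx, Rgs7 and Pcp2 had more reads in pan-BC than in rods, and those of Lrit3 had fewer. Capitals mark exact matches to TAATCC or TAATTG on either strand, motifs that homeodomain transcription factors can bind. Binding was not measured. No printed stretch held TAATTA, which was also searched for.
Grm6 intron (chr11:50850840-50850939, plus strand): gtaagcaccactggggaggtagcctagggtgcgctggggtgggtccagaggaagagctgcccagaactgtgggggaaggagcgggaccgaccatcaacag
Trpm1 upstream (chr7:64144286-64144485, plus strand): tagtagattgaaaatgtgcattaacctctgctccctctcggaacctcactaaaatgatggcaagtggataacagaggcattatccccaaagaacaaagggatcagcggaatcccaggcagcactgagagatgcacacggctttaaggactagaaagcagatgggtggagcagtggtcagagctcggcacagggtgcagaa
Trpm1 promoter (chr7:64153724-64153834, plus strand): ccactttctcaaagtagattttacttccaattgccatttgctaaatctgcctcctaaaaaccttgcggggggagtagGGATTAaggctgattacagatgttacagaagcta
Gpr179 promoter (chr11:97352357-97352494, minus strand): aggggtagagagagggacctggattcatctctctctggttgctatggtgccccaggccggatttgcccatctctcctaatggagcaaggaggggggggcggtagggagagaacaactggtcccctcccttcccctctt
Nyx intragenic (chrX:13475430-13475629, plus strand): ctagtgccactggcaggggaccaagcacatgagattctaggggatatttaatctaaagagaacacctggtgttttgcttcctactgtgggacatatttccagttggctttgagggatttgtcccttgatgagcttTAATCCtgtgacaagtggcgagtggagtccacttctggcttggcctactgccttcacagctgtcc
Lrit3 promoter (chr3:129804137-129804247, minus strand): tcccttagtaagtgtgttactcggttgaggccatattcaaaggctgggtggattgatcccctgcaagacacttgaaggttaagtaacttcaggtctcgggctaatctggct
Lrit3 intragenic (chr3:129796976-129797175, minus strand): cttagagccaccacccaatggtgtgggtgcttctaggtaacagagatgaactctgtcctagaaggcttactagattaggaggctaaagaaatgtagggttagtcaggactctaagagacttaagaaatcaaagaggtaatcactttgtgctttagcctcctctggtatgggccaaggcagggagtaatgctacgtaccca
Rgs7 intron (chr1:175456061-175456260, minus strand): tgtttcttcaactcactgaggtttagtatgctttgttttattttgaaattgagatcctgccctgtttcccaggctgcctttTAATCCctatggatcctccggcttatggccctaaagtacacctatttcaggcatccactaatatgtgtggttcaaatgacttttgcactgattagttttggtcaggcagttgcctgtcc
Pcp2 promoter (chr8:3625575-3625774, minus strand): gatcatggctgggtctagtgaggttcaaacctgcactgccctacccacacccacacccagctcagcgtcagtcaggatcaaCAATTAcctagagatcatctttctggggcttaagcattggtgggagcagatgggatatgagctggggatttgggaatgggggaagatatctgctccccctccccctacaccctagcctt

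Between ON-BC and OFF-BC, 4 of the 9 cascade genes that could be tested were called higher in ON-BC and none was called lower. A call means that limma's test against a log2 fold change of 1, on log2(normalized count + 1), gave an adjusted p under 0.05. Over all 14024 genes tested, 2.95% were called higher in ON-BC and 3.60% lower. Grm6 was left out because its promoter drove the YFP that set the gate. The called genes were Gpr179, Trpm1, Pcp2 and Gnao1. In 8 of the 9 genes the 3 ON-BC libraries did not overlap the 3 OFF-BC libraries, against 42.2% of all genes tested, and all 8 were higher in ON-BC. The exception was Lrit3. The median log2 difference of the 9 genes was 2.29 and that of all genes tested was -0.02. Without OFF-BC replicate 3, 4 of the 9 were again called, where 3.02% of all genes were called higher and 3.16% lower. The count depended on the test: edgeR on the recovered reads called 8 of the 9 higher, adding Nyx, Gng13, Rgs7 and Rgs11, where it called 4.06% of all genes higher. DESeq2 called 6, where it called 3.20% of all genes higher. In limma fitted to ON-BC and OFF-BC alone Lrit3 was not tested, and the other 8 were called, where 3.50% of 13113 genes were called higher.

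Against photoreceptors, 9 of the 10 genes passed the test as higher in pan-BC than rods, where 27.8% of all genes were called higher and 15.8% lower, and Lrit3 was called lower. The same counts held against blue cones, where 22.7% of all genes were called higher and 13.7% lower. The median log2 difference was 7.90 against rods, beside 0.21 over all genes, and 6.61 against blue cones, beside 0.16. Scaling to library totals alone raised the median of all genes to 0.55 against rods and 0.44 against blue cones, with the same 10 calls. The rod and blue cone comparisons share the pan-BC libraries. In OFF-BC, 8 of the 10 genes were still called higher than in rods, where 27.1% of all genes were called higher and 15.5% lower. Against blue cones the counts were again 8 higher and 1 lower, with 21.8% and 13.7% of all genes. Lrit3 was the gene called lower both times, and Grm6 was the gene with no call. OFF-BC were gated as negative for YFP driven by the Grm6 promoter. The low Grm6 level of OFF-BC was therefore set by the sort, and its missing call is not a result.

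**Figure D1:**
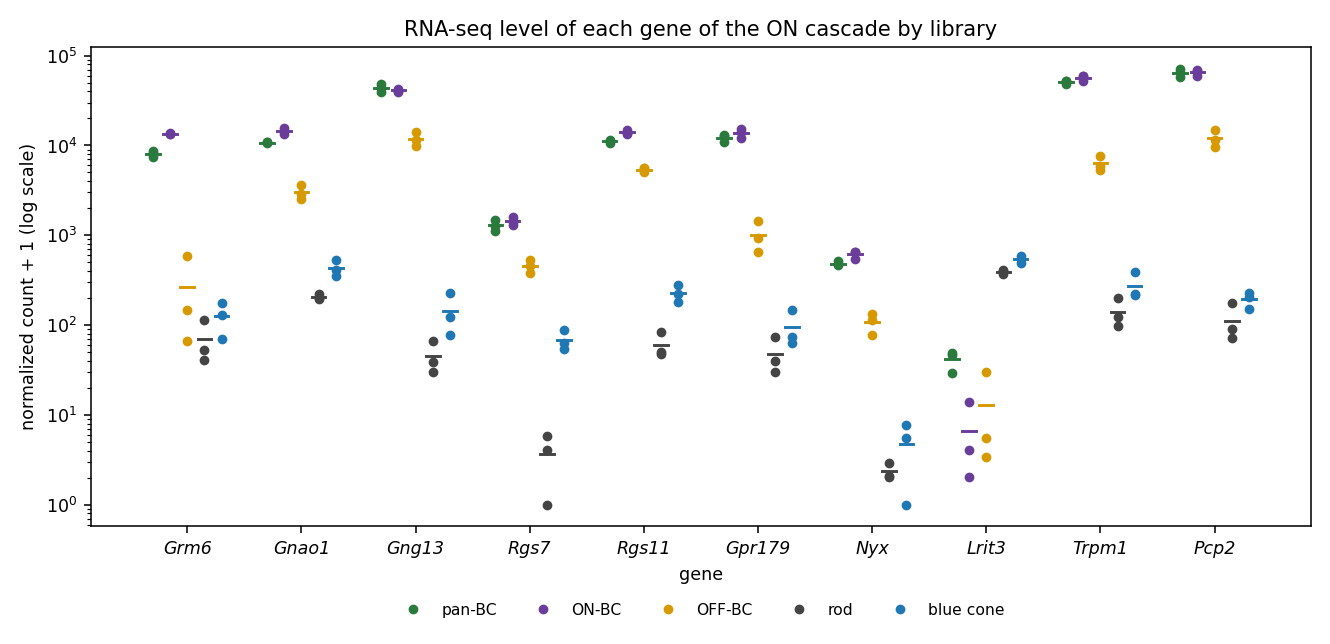
Normalized counts of the 10 cascade genes in each RNA-seq library, on a log10 axis after adding 1, by population (3 libraries each, bars at the mean). ON-BC and pan-BC libraries lay highest for every gene but Lrit3, OFF-BC libraries lay between them and the photoreceptors for 8 genes, and Grm6 in OFF-BC overlapped the blue cones.

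Grm6 (chr11:50850369-50866208, plus strand) encodes mGluR6, the glutamate receptor that starts the cascade. Its normalized counts were 13260, 13835 and 13401 in ON-BC and 8301, 7402 and 8617 in pan-BC. In OFF-BC they were 145, 64.9 and 593, in rods 39.8, 51.2 and 113, with blue cones at 68.4, 130 and 175. The ON-BC libraries lay above all others, and the OFF-BC range contained that of the blue cones. The ON-BC mean of 13499 ± 300 (SD, n = 3) against 268 ± 284 in OFF-BC describes the sort, and OFF-BC was at 1.98% of ON-BC, and at 0.778% without OFF-BC replicate 3. Grm6 was called higher in pan-BC than rods by 7.02 on the log2 scale and than in blue cones by 6.11. OFF-BC exceeded rods by 1.52 ± 0.55 (SE) on the log2 scale and blue cones by 0.61. The difference from blue cones was -0.25 without OFF-BC replicate 3. Both values also describe the sort, since OFF-BC were gated as YFP-negative, and they carry no test here.

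Positions of regions count from the nearest RefSeq start of the gene, which for some genes lies inside the printed span, and for Grm6 is base 50850685. Grm6 had 5 ATAC-seq regions and none within 1000 bases upstream to 100 downstream of that start. The region at chr11:50850771-50850970, centred 186 bases after it, covered part of an intron. It had 303 and 384 normalized reads in ON-BC, compared with 13.5 and 16.5 in OFF-BC and 34.4 and 30.8 in pan-BC. Rods had 1.56 and 4.07, blue cones 1.30 and 0.723, with green cones at 4.61 and 2.82. The ON-BC values stood apart from those of all other libraries, of which pan-BC came next. Pan-BC exceeded rods by 3.22 on the log2 scale (adjusted p = 0.00426, limma) and cones by 3.47 (adjusted p = 0.00119).

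At this region the ON-BC mean was 10.5-fold the pan-BC mean, while Grm6 RNA averaged 13499 normalized counts in ON-BC and 8107 in pan-BC. A second region at chr11:50847136-50847335, centred at position -3449, had 108 and 129 reads in ON-BC, compared with 56.6 and 66.2 in OFF-BC and 26.4 and 17.7 in pan-BC. There ON-BC was 5.36-fold and OFF-BC 2.79-fold the pan-BC level, although OFF-BC had little Grm6 RNA. A region at position -2295 (chr11:50848290-50848489) had 143 and 212 reads in ON-BC, 55.2 and 45.6 in pan-BC and 113 and 134 in OFF-BC, a ratio of 3.53 for ON-BC and 2.45 for OFF-BC. The Grm6-YFP transgene carries Grm6 promoter sequence, and reads from its copies and from the endogenous gene cannot be told apart. This comparison with pan-BC was chosen after the data were seen, and no cascade region passed its test. The largest difference, at the intronic region, was 3.35 ± 0.65 (SE) with an adjusted p of 0.525, and 0.0332% of all regions were called in either direction. The median log2 difference from pan-BC to ON-BC was 1.78 over the 5 Grm6 regions, 0.08 over all cascade regions tested and 0.03 over all regions.

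**Figure D2:**
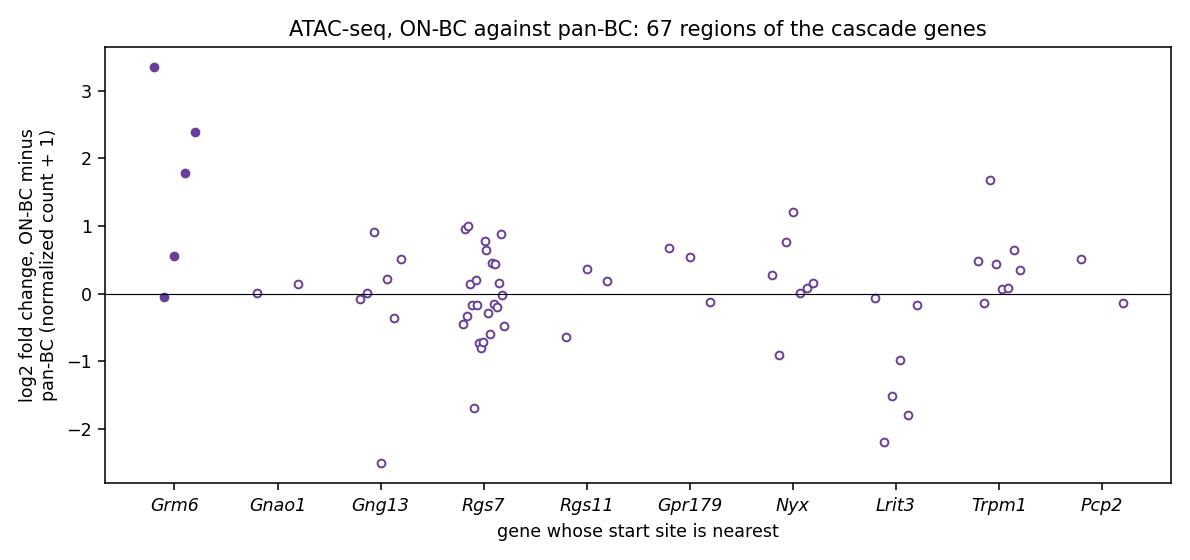
Log2 difference in ATAC-seq reads between ON-BC and pan-BC for each cascade region tested, by gene, from the fit on log2(normalized count + 1) with 2 libraries per population. Grm6 regions reached 3.35 while the median over all cascade regions was 0.08, and no region passed the test.

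Trpm1 (chr7:64153835-64269772, plus strand) encodes the cation channel that the cascade closes in darkness, and it hosts the microRNA gene Mir211 in an intron. Its normalized counts were 59198, 59745 and 51663 in ON-BC, 52133, 47907 and 51554 in pan-BC, and 5930, 5394 and 7567 in OFF-BC. Rods had 97.0, 122 and 197, and blue cones 219, 214 and 386. ON-BC and pan-BC overlapped, OFF-BC lay below both and above every photoreceptor library. ON-BC exceeded OFF-BC by 3.19 ± 0.23 (SE) on the log2 scale (adjusted p = 2.61e-06, limma), 9.03-fold by means. The OFF-BC mean was 11.1% of ON-BC, and 9.96% without OFF-BC replicate 3. The 3 OFF-BC libraries had 145, 64.9 and 593 counts of Grm6, the gene that set the gate, beside 5930, 5394 and 7567 of Trpm1. The part of ON bipolar cells in these Trpm1 counts was not tested.

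All 8 Trpm1 regions were called higher in pan-BC than rods, where 38.9% of all regions were called higher, and 5 were called higher than in cones, where 27.8% were. At the promoter region (chr7:64153724-64153923) pan-BC had 80.0 and 99.2 reads, ON-BC 88.1 and 101, and OFF-BC 40.4 and 29.2. Both rod libraries had 0 reads there, blue cones had 5.18 and 1.45, and green cones 1.54 and 5.63. The pan-BC excess was called against rods (adjusted p = 1.42e-06, limma) and against cones (adjusted p = 7.34e-05), whereas the ON-BC excess over OFF-BC of 1.43 on the log2 scale was not (adjusted p = 0.94). The upstream region shown above, at position -9449, had 125 and 141 reads in ON-BC against 10.8 and 17.5 in OFF-BC, a log2 difference of 3.18 with an adjusted p of 0.0749. It had 89.6 and 120 reads in pan-BC and 0 in both rod libraries. Another region at position -13665 had 133 and 142 reads in ON-BC against 26.9 and 18.5 in OFF-BC. By contrast, the region 2047 bases inside the gene had 71.7 and 120 reads in ON-BC against 84.9 and 94.4 in OFF-BC, values that overlapped. A region 9800 bases inside had 169 and 231 reads in pan-BC, 102 and 122 in blue cones and 3.12 and 5.42 in rods, so it was open in cones, which had little Trpm1 RNA.

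Gpr179 (chr11:97332109-97352356, minus strand) encodes an orphan receptor that holds RGS proteins at the dendritic tip. Its normalized counts were 14284, 15429 and 11989 in ON-BC, 12785, 10822 and 12913 in pan-BC, and 643, 919 and 1441 in OFF-BC. Rods had 38.8, 28.7 and 72.4, and blue cones 62.4, 72.1 and 144, and these photoreceptor ranges overlapped. Gpr179 had the largest ON-BC excess of the tested cascade genes, 3.87 ± 0.33 (SE) on the log2 scale (adjusted p = 6.83e-06, limma). OFF-BC was at 7.20% of ON-BC and at 5.62% without OFF-BC replicate 3. Its promoter region (chr11:97352295-97352494) had 151 and 114 reads in ON-BC, 154 and 132 in pan-BC, and 29.6 and 51.6 in OFF-BC. Rods had 3.89 and 0 there, blue cones 5.18 and 0, with green cones at 6.15 and 7.04. All 3 Gpr179 regions were called higher in pan-BC than rods and than in cones, beside the 38.9% and 27.8% of all regions, and at the promoter the log2 differences were 6.02 and 5.05.

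Nyx (chrX:13461090-13492820, plus strand) encodes nyctalopin, a leucine-rich repeat protein that places TRPM1 at the dendritic tip. It was scarce, with 653, 652 and 547 normalized counts in ON-BC, 463, 509 and 475 in pan-BC, and 76.0, 114 and 131 in OFF-BC. Rods had 1.94, 1.02 and 1.08, and blue cones 0, 4.55 and 6.66. The 3 bipolar populations did not overlap, and photoreceptors were near 0. ON-BC exceeded OFF-BC by 2.55 ± 0.53 (SE) on the log2 scale, 5.76-fold by means, with an adjusted p of 0.0676 by limma. An intragenic region 14440 bases after the start (chrX:13475430-13475629) was called higher in ON-BC than in OFF-BC. It had 41.8 and 57.1 reads in ON-BC, 41.6 and 39.3 in pan-BC, and 2.69 and 4.87 in OFF-BC, a log2 difference of 3.42 ± 0.76 (SE) with an adjusted p of 0.0456. That call was lost under 10 of 20 alternative settings. The region 6381 bases inside the gene was open in all bipolar libraries, with 154 and 264 reads in ON-BC against 98.3 and 103 in OFF-BC. The region 636 bases inside had 168 and 206 reads in pan-BC and 264 and 203 in rods, which had almost no Nyx RNA.

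Lrit3 (chr3:129783941-129804136, minus strand), a leucine-rich repeat protein needed to place nyctalopin and TRPM1, had the reverse pattern to the other 9 genes. It was highest in blue cones, with 593, 494 and 543 normalized counts, and in rods, with 408, 401 and 369. Pan-BC libraries had 45.7, 28.2 and 47.7, OFF-BC 4.47, 2.40 and 28.7, and ON-BC 3.10, 12.7 and 1.03. Photoreceptor libraries lay above every bipolar library, and pan-BC lay above ON-BC without overlap. Pan-BC was below rods by a log2 difference of -3.28 ± 0.67 (SE) with an adjusted p of 0.00471, and below blue cones by -3.74 with an adjusted p of 0.0015 (limma). OFF-BC was below rods by -5.58 on the log2 scale and below blue cones by -6.05. ON-BC and OFF-BC overlapped, with a log2 difference of -0.76 ± 0.67 (SE) and an adjusted p of 1, and OFF-BC moved from 210.9% to 61.2% of ON-BC without OFF-BC replicate 3, when the log2 difference was 0.17.

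Pan-BC libraries and OFF-BC replicate 3, which had the most Lrit3 of the bipolar libraries, also had the most cone markers. The 7 cone markers summed to between 41557 and 67561 in pan-BC and between 4630 and 5253 in ON-BC, and to 92698 in OFF-BC replicate 3. Rod markers summed to between 33305 and 41852 in pan-BC, between 20202 and 25438 in ON-BC, and 4245, 3580 and 17891 in OFF-BC. They too were highest in pan-BC among bipolar populations and in replicate 3 among OFF-BC libraries, while ON-BC lay above OFF-BC. In rods the rod markers summed to between 1791939 and 2464526, and in blue cones the cone markers to between 1504110 and 1727097. The part of these markers in the low Lrit3 counts of bipolar libraries was not tested.

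At the Lrit3 promoter region (chr3:129804048-129804247) rods had 290 and 312 reads, blue cones 232 and 231, with green cones at 209 and 189. Pan-BC had 8.00 and 16.5, ON-BC 11.9 and 0, and OFF-BC 52.5 and 30.2. Pan-BC was below rods by -4.58 on the log2 scale (adjusted p = 0.000201, limma) and below cones by -4.10 (adjusted p = 0.00038). ON-BC was also called below OFF-BC, by -3.51 ± 0.70 (SE) with an adjusted p of 0.0271. That call was lost under 4 of 20 alternative settings, and the difference ranged from -5.35 to -1.66 over them. The intragenic region at chr3:129796976-129797175 had 5.97 and 5.86 reads in ON-BC, compared with 83.5 and 38.9 in OFF-BC and 7.20 and 21.7 in pan-BC. Rods held 93.5 and 71.8 there, blue cones 211 and 220, with green cones at 147 and 204. ON-BC was below OFF-BC there by -3.07 ± 0.44 (SE) with an adjusted p of 0.00521, a call lost under 1 of 20 settings, without OFF-BC replicate 1. In the RNA-seq libraries cone markers were higher in OFF-BC than in ON-BC, 7 of 7 being called lower in ON-BC, and the part of cone chromatin in these OFF-BC reads was not tested.

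**Figure D3:**
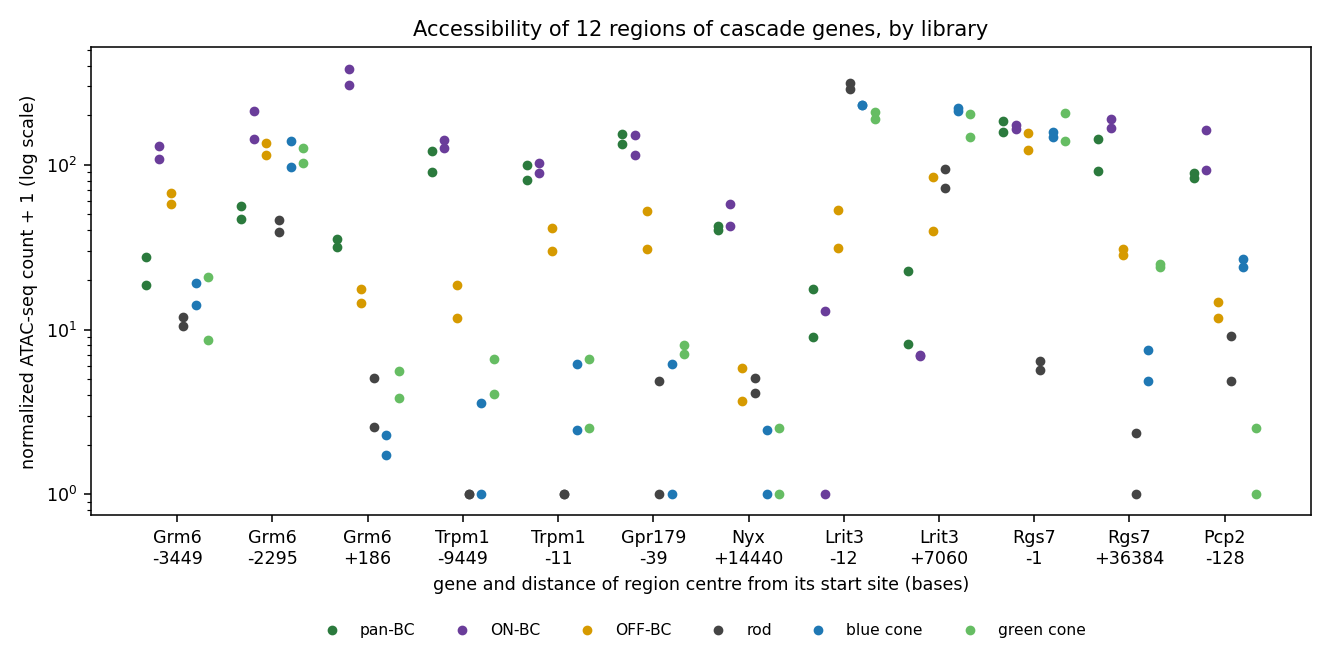
Normalized ATAC-seq reads in 12 regions of the cascade genes, by library (2 per population), on a log10 axis after adding 1, each named by gene and distance in bases from its start site. The Grm6 region at +186 had 303 and 384 reads in ON-BC and at most 34.4 elsewhere, the Lrit3 promoter was highest in rods and cones, and the Rgs7 promoter was low in rods only.

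Gnao1 and Gng13 encode subunits of the G protein Go. Gnao1 (chr8:93810153-93969388, plus strand), the alpha subunit, had 14624, 15747 and 13524 normalized counts in ON-BC, 10655, 10834 and 10816 in pan-BC, and 2514, 2855 and 3672 in OFF-BC. Rods held 201, 194 and 223 and blue cones 408, 349 and 525, so no 2 populations overlapped. The ON-BC excess over OFF-BC was 2.29 ± 0.14 (SE) on the log2 scale (adjusted p = 4.87e-06, limma). Of the 9 genes higher in bipolar cells, Gnao1 had the highest rod level relative to pan-BC, at 1.91%. Its promoter was open everywhere. The region at position -439 had 566 and 486 reads in pan-BC against 205 and 161 in rods, with ON-BC at 715 and 466 and OFF-BC at 451 and 501, and pan-BC was called higher than rods by 1.53 on the log2 scale (adjusted p = 0.0235).

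Gng13 (chr17:25717172-25719102, plus strand), the gamma subunit, had 40893, 42741 and 39853 normalized counts in ON-BC, 48505, 43975 and 39748 in pan-BC, and 11642, 9876 and 14122 in OFF-BC. Rods had 29.1, 37.9 and 65.9, and blue cones 77.5, 123 and 227. The pan-BC mean was above the ON-BC mean, though the libraries overlapped, and OFF-BC was at 28.9% of ON-BC. The ON-BC excess over OFF-BC was 1.81 ± 0.30 (SE) on the log2 scale with an adjusted p of 0.105 by limma. Of the 10 genes Gng13 was lowest in rods relative to pan-BC, at 0.101% of its mean. Its last exon overlaps Chtf18 on the opposite strand, and the library kit does not mark strand. At the Gng13 promoter pan-BC had 65.6 and 43.3 reads and rods 9.35 and 5.42, a log2 difference of 2.74 (adjusted p = 0.0287). Of the 7 Gng13 regions 3 were called higher in pan-BC than rods, beside 38.9% of all regions. The median log2 difference over the 7 was -0.69, beside 1.16 over all regions.

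Rgs7 and Rgs11 encode the RGS proteins that switch Go off. Rgs7 (chr1:175059076-175492862, minus strand) had 1613, 1390 and 1313 normalized counts in ON-BC, 1253, 1491 and 1111 in pan-BC, and 378, 458 and 534 in OFF-BC. Rods had 4.85, 3.07 and 0, and blue cones 53.4, 62.2 and 87.3. ON-BC exceeded OFF-BC by 1.66 ± 0.43 (SE) on the log2 scale, 3.15-fold by means, which was not called (adjusted p = 0.685, limma). Rods and blue cones differed, with rods below by -4.55 ± 0.43 (SE) on the log2 scale (adjusted p = 3.51e-06). Rgs11 (chr17:26202527-26211324, plus strand) had 13452, 13867 and 14777 normalized counts in ON-BC, 10621, 11207 and 11631 in pan-BC, and 5593, 5011 and 5543 in OFF-BC. It kept the most RNA in OFF-BC of the 9 genes higher in ON-BC by mean, 38.4% of the ON-BC level, with a log2 difference of 1.38 ± 0.18 (SE) and an adjusted p of 0.255. Rods had 48.5, 47.1 and 82.1 and blue cones 181, 220 and 278, and rods were called below blue cones by -1.94 ± 0.18 (SE) (adjusted p = 0.000354).

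Rgs7 and Rgs11 were the 2 cascade genes called between rods and blue cones, where 11.3% of all genes were called lower in rods, and the other 8 were not called. Of the 4 ON bipolar markers 1 was called lower in rods than in blue cones and 1 higher. Car8 had 3621, 4540 and 5281 normalized counts in blue cones against 50.5, 48.1 and 95.1 in rods. Prkca went the other way, with 194, 181 and 114 in blue cones against 978, 1085 and 997 in rods. The part of other cells in the differences of Rgs7 and Rgs11 was not tested.

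Rgs7 held 25 of the 69 cascade regions, and 22 of the 24 tested were called higher in pan-BC than rods, beside 38.9% of all regions. Against cones 4 were called higher and 2 lower, beside 27.8% and 7.42% of all regions. Summed over the 25 regions, pan-BC had 855 and 1097 reads, ON-BC 944 and 1160, OFF-BC 683 and 551, rods 28.8 and 29.8, blue cones 1010 and 1059, with green cones at 1257 and 1280. In rods 9 of the 25 regions had 0 reads in both libraries, 24 had fewer than 6 in each, and the highest value was 15.6. By summed reads the locus was low in rods and not in cones, although blue cones had 5.26% of the pan-BC Rgs7 RNA. The promoter region (chr1:175492446-175492645) had 158 and 185 reads in pan-BC, 148 and 158 in blue cones, 139 and 206 in green cones, and 4.67 and 5.42 in rods. Pan-BC exceeded rods there by 4.83 on the log2 scale (adjusted p = 4.96e-09, limma). The intronic region shown above (chr1:175456061-175456260) differed from cones too, with 90.4 and 143 reads in pan-BC, 3.89 and 6.50 in blue cones, with 23.1 and 23.9 in green cones (adjusted p = 0.00338). It had 166 and 190 reads in ON-BC against 29.6 and 27.3 in OFF-BC, a log2 difference of 2.60 that was not called (adjusted p = 0.155).

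At Rgs11 the region 812 bases inside the gene had 68.8 and 55.9 reads in pan-BC and 3.12 and 12.9 in rods, and pan-BC was called higher than rods (adjusted p = 0.0438) and than cones (adjusted p = 0.0153) by limma. The Rgs11 promoter region had 58.4 and 34.8 reads in pan-BC, 18.9 and 19.5 in OFF-BC and 10.1 and 16.3 in rods, and was not called.

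Pcp2 (chr8:3623369-3625547, minus strand) encodes a GoLoco protein that binds Go alpha subunits. Its normalized counts were 67537, 59953 and 69448 in ON-BC, 70763, 65791 and 57605 in pan-BC, and 11559, 9502 and 14805 in OFF-BC. Rods had 70.8, 89.1 and 173, and blue cones 151, 203 and 229. ON-BC and pan-BC overlapped, and OFF-BC was at 18.2% of ON-BC. The ON-BC excess was 2.48 ± 0.25 (SE) on the log2 scale (adjusted p = 0.000306, limma). One of its exons overlaps Pet100 on the opposite strand. The promoter region shown above had 92.6 and 161 reads in ON-BC, 88.8 and 82.7 in pan-BC, and 10.8 and 13.6 in OFF-BC. Its ON-BC excess over OFF-BC of 3.23 ± 1.08 (SE) on the log2 scale was not called (adjusted p = 0.232), while pan-BC was called above rods by 3.70 (adjusted p = 0.0254) and above cones by 3.77 (adjusted p = 0.0152).

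The OFF-BC level relative to ON-BC thus ran from 7.20% for Gpr179, 11.1% for Trpm1, 17.4% for Nyx, 18.2% for Pcp2 and 20.6% for Gnao1 to 28.9% for Gng13, 31.7% for Rgs7 and 38.4% for Rgs11, with the sorting gene Grm6 at 1.98% and Lrit3 at 210.9%. Without OFF-BC replicate 3 the order of the 8 genes from Gpr179 to Rgs11 was the same, from 5.62% for Gpr179 to 37.8% for Rgs11. The 4 ON markers summed to 693, 390 and 2679 normalized counts in OFF-BC replicates 1, 2 and 3. In ON-BC replicates 1, 2 and 3 they summed to 49637, 54175 and 48226. The part of ON bipolar cells in the OFF-BC levels was not tested.

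**Figure D4:**
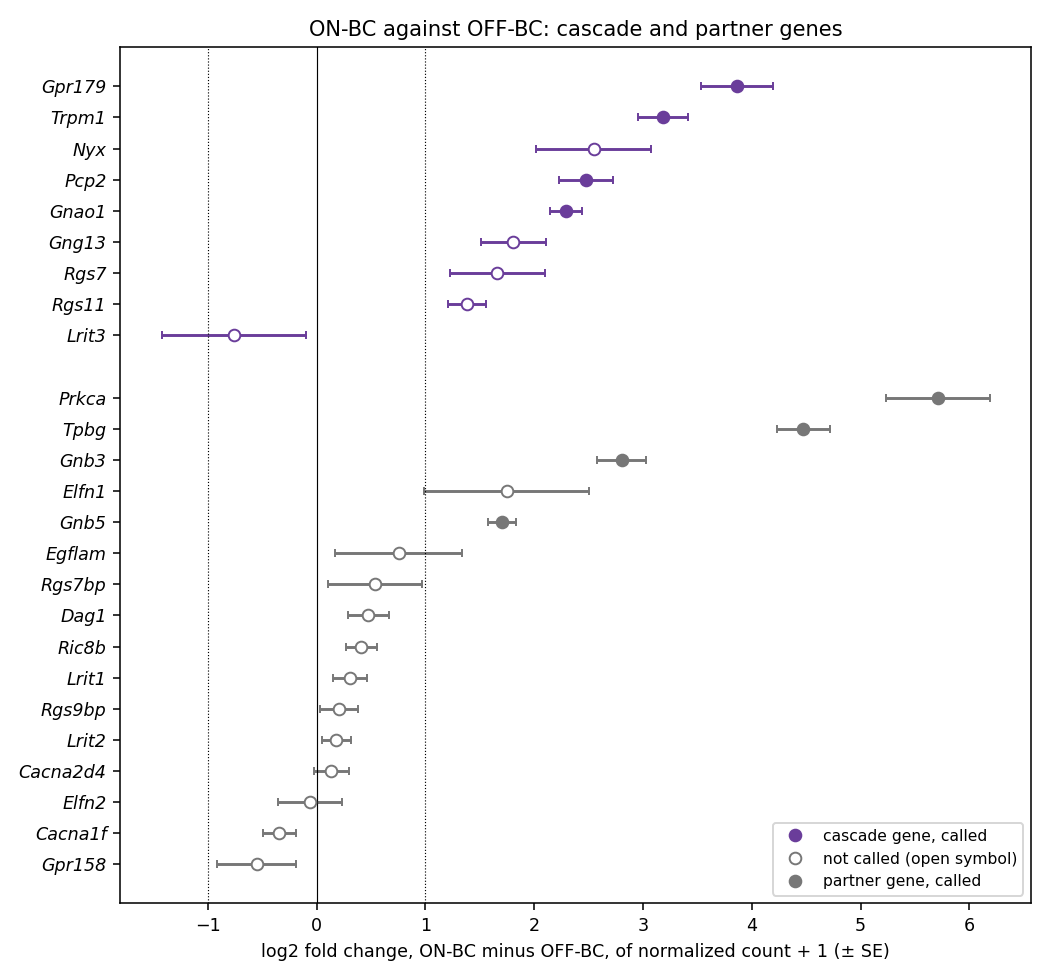
Log2 difference between ON-BC and OFF-BC (± SE, from the fit on log2(normalized count + 1), 3 libraries per population) for 9 cascade genes and for partner genes, with filled symbols for called genes and dotted lines at 1 and -1. Gpr179 (3.87) and Trpm1 (3.19) led the cascade genes, Lrit3 (-0.76) alone fell below 0, and Prkca (5.71) led the partners.

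Pan-BC lay between OFF-BC and ON-BC by mean for 8 genes. Its position, with OFF-BC at 0 and ON-BC at 100%, was 59.2% for Grm6, 66.7% for both Rgs11 and Gnao1, 73.5% for Nyx, 84.3% for Rgs7, 86.6% for Gpr179, 87.5% for Trpm1 and 98.3% for Pcp2. Gng13 lay at 110%, above ON-BC. Lrit3 was higher in pan-BC than in both. The libraries of pan-BC and ON-BC did not overlap in 5 of the 10 genes, Grm6, Gnao1, Rgs11, Nyx and Lrit3, against 27.2% of all genes tested.

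Per kilobase of merged exon, the ON-BC levels ran from 87954 ± 3126 (SD, n = 3) for Gng13 and 78430 ± 6000 for Pcp2 through 8304 ± 659 for Trpm1, 6923 ± 334 for Rgs11 and 3116 ± 69.2 for Grm6. Gnao1 followed at 1892 ± 144, Gpr179 at 1496 ± 188, Rgs7 at 560 ± 60.6, Nyx at 111 ± 10.9 and Lrit3 at 0.864 ± 0.961. The receptor and channel were therefore well below the G protein gamma subunit and the GoLoco protein by level per length. In OFF-BC Gng13 (25385 per kilobase), Pcp2 (14284) and Rgs11 (2655) came first, ahead of Trpm1 (920), and Grm6 was at 61.8. In rods Lrit3, at 60.3 per kilobase, came after Pcp2 and Gng13 and ahead of the other 7 genes.

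Of 20 genes whose proteins act with the cascade, 19 were in the table. Of these, 5 were called higher in ON-BC than in OFF-BC and none lower, beside 2.95% and 3.60% of all genes. The values of 4 of the 5 follow. Gnb3 and Gnb5 encode the G beta partners of Go and of the RGS proteins. Gnb3 had 92915 ± 13826 normalized counts in ON-BC against 13746 ± 4638 in OFF-BC (SD, n = 3), a log2 difference of 2.81, and Gnb5 had 15888 and 4900, a log2 difference of 1.70. In photoreceptors the level depended on the type. Gnb3 was at 215435 in blue cones, but the 3 rod libraries had 3342, 4433 and 4699, below every OFF-BC library. Gnb5 was at 24293 in rods, and the blue cone libraries had 9182, 11151 and 11685. Tpbg, a leucine-rich repeat protein of rod bipolar cells, had 2266 normalized counts in ON-BC against 103 in OFF-BC, a log2 difference of 4.47. Prkca, the rod bipolar kinase that also served as an ON marker, had 8239 and 235.

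The other 14 partners were not called. They included the postsynaptic anchors Rgs7bp (log2 difference 0.54) and Rgs9bp (0.21), and the dystroglycan complex genes Dag1 (0.48) and Egflam (0.75). The synaptic adhesion genes Elfn1 (1.75) and Elfn2 (-0.06) and the Lrit3 relatives Lrit1 (0.31) and Lrit2 (0.18) were not called either. Nor were the calcium channel genes Cacna1f (-0.34) and Cacna2d4 (0.14) and the Gpr179 relative Gpr158 (-0.55). Ric8b (0.41), a chaperone of G protein alpha subunits, was not called. The median log2 difference of the 19 partners was 0.41.

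Among 49 relatives of the cascade genes, 38 were tested. Of the 38, 2 were called higher in ON-BC and 6 lower, beside 2.95% and 3.60% of all genes. The median log2 difference of the 38 was -0.30, beside -0.02 over all genes. Of the 4 metabotropic glutamate receptors tested, Grm5 alone was called, with 2962 normalized counts in ON-BC against 393 in OFF-BC (log2 difference 2.91 ± 0.29 SE, adjusted p = 0.00011, limma). Trpm3, the channel gene closest in kind to Trpm1, went the other way, with 18.0 in ON-BC against 736 in OFF-BC (-5.32 ± 0.43 SE, adjusted p = 1.59e-06). Gng2, a gamma subunit like Gng13, had 14.5 in ON-BC against 932 in OFF-BC (-5.92 ± 0.63 SE, adjusted p = 2.3e-05). Gnb2 (-2.44) and Gpsm3 (-2.23), a GoLoco protein like Pcp2, were also called lower in ON-BC. The remaining calls were phototransduction genes, Gnat1 of rods higher in ON-BC (3.54), and Gnat2 (-2.37) and Gngt2 (-3.32) of cones lower. Gnat1 is itself among the 7 rod markers, of which 6 were called higher in ON-BC, and Gnat2 among the 7 cone markers, of which 7 were called lower. The part of photoreceptor RNA was not tested.

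Over the 15 libraries, which share population, depth and preparation, the genes outside the cascade whose log2 values followed Trpm1 best were Ift20 (Pearson's r = 0.998), Cntnap2 (0.997), Grm5 (0.997), Mt1 (0.994) and Mt2 (0.994). For cascade genes the r with Trpm1 was 0.997 for Gnao1, 0.995 for Pcp2, 0.993 for Gpr179, 0.987 for Gng13, 0.984 for Nyx, 0.979 for Rgs11, 0.911 for Rgs7, 0.906 for Grm6 and -0.809 for Lrit3. Among all genes tested their ranks in this order were 4, 5, 8, 29, 46, 84, 1304, 1407 and 11427. An r near 0.91 was thus common. The genes most like Grm6 were Isl1 (0.993), Lin7a (0.990), Tanc1 (0.989), Il1rapl2 (0.986) and 4930564B18Rik (0.986), and Isl1 is an ON bipolar marker. These values describe 5 populations and carry no test.

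The 69 ATAC-seq regions nearest to a cascade gene lay in introns (43), between genes (20) and over exons (6), and 67 were tested. Between ON-BC and OFF-BC 2 were called higher, at Grm6 and Nyx, and 2 lower, both at Lrit3, where 3.35% of all regions were called higher and 2.13% lower. The Grm6 call rests on the gene that set the gate. The median log2 difference was 0.78, beside 0.15 over all regions. With TMM scaling the median of all regions was -0.07, and 2.39% of all regions were called higher and 2.46% lower. edgeR on the recovered reads called 9 cascade regions, 7 higher and 2 lower, where it called 5.07% of all regions higher and 3.44% lower, and leaving out 1 library gave between 1 and 6 calls. Between pan-BC and rods 44 of the 67 were called higher and 3 lower, against 38.9% and 10.4% of all regions, with a median of 3.18 beside 1.16, and the median was the same with regions at 0 reads set to a floor of 3 reads over the group. Between pan-BC and cones 21 were called higher and 6 lower, against 27.8% and 7.42% of all regions, with a median of 0.75 beside 0.46. Without pan-BC replicate 1 the number called against cones was 16 and without replicate 2 it was 13, where 21.1% and 16.4% of all regions were called higher. Against rods the calls were at Rgs7 (22), Trpm1 (8), Gpr179 (3) and 6 further genes, and all 3 lower calls were at Lrit3. With 2 libraries per population, a region that was not called is not shown to be unchanged.

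Exact matches to 4 motifs were counted on both strands, and none of these motifs contains another. TAATCC was in 23 of the 69 regions (33.3%) and in 21.8% of all regions of the same length. TAATTA was in 4 (5.80%) against 5.19%, TAATTG in 5 (7.25%) against 6.88%, and CANNTG, the E-box of bHLH factors, in 54 (78.3%) against 68.7%. TAATCC was in 9 of 25 Rgs7 regions, 4 of 8 Trpm1 regions, 3 of 8 Nyx regions and 2 of 5 Grm6 regions. In the RefSeq table of promoters, 9 of the 10 genes had entries, with 14 windows of 250 bases before a start, some of which overlap. Of these 1 held TAATCC, against 6.25% of all windows. That match was in the Trpm1 promoter, at position -34 from the start, and is the one in capitals above. TAATTA was in 1 window, against 4.84% of all windows, and TAATTG in 4, at Trpm1 and Pcp2, against 7.17%. CANNTG was in 13 windows, against 66.2%. A match is a description of letters and not a bound site.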

How the data were processed

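RNA-seq and ATAC-seq libraries were made from sorted retinal cells of mice. Per the study's methods, RNA was amplified with a kit that does not mark strand, and the authors used STAR 2.7.0d to align reads to GRCm38 (mm10) and HTSeq 1.9 to count them per RefSeq gene (versions from the submitters' processing notes). ATAC-seq reads were aligned with Bowtie2, duplicates were removed with Picard 2.19.0, fragments over a maximum insert were dropped and peaks were called per library with MACS2 2.1.1. The deposited tables hold a signal, the read counts per gene or region divided by the authors by 1 size factor per library. Within 0.01 reads, all 230384 RNA-seq and all 1212862 ATAC-seq values above 0 were whole multiples of 1 step per library, which gave the reads back. The deposited peak lists, and 2 double-sorted green cone ATAC-seq libraries that have no column in the table, were not used here. Carry-over genes that the study removed from its lists were kept.

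All comparisons used limma 3.58.1 (R 4.3.3) on log2(normalized count + 1), with all 15 RNA-seq libraries in 1 model of 5 populations and all 12 ATAC-seq libraries in 1 model with blue and green cones as 1 level. The test was two-sided, against a log2 fold change of 1, with Benjamini-Hochberg adjustment over the 14024 genes or 108448 regions kept by edgeR's filterByExpr and a threshold of 0.05. Fold changes on this scale understate those of low genes. A region was given to the gene with the nearest RefSeq start. The fit was tested on simulated data. Alternatives were edgeR 4.0.16 and DESeq2 1.42.0 on the recovered reads, other scalings, pseudocounts, filters and sets of libraries. The cascade genes, gene lists and tests were chosen with earlier results of these data known. All cascade genes were named, with the partner genes, the relatives called between ON-BC and OFF-BC, the genes most like Trpm1 and Grm6, and called or promoter regions, of which part is given as counts. Nothing in the labels says that replicates came from separate litters, so p-values measure the spread between these libraries. The values of some partner genes and of 1 marker list are not reported here.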

Additional observations from a re-analysis of the deposited data

How the results depend on the processing

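Of 2253 values for single cascade genes and regions under alternative settings, 2167 kept their direction and their side of the threshold, 37 lost the call, 38 gained it and 11 changed sign, none of them called in either fit. Leaving out 1 library gave log2 differences of -1.51 to 0.17 for Lrit3 between ON-BC and OFF-BC and -0.25 to 1.33 for Grm6 between OFF-BC and blue cones. Between ON-BC and OFF-BC it gave -0.45 to 0.13 for the Gnao1 region at -2, -0.031 to 0.59 at -439, -0.12 to 1.23 for Rgs11 at +5 and -0.82 to 0.14 for Rgs7 at -310. For Rgs7 at -1, between pan-BC and cones, it gave -0.021 to 0.21, with -0.18 by edgeR and -0.15 with TMM factors. Cascade genes with an ON-BC to OFF-BC call numbered 4. They numbered 8 with edgeR, with limma without a fold threshold and with only those 2 populations in the fit. Leaving out 1 library gave 4 to 6, where 2.44% to 3.11% of all genes were called higher. The share of all genes called higher was 2.95%, 4.06% with edgeR, 12.7% without a fold threshold and 3.50% with those 2 populations. Without a fold threshold 15 relatives were called in place of 8 (5 higher, 10 lower), where 12.7% of all genes were called higher and 14.2% lower. Between rods and blue cones the same setting called 7 cascade genes in place of 2, with 30.4% of all genes called lower in place of 11.3%. It called 18 regions between ON-BC and OFF-BC in place of 4, with 11.3% of all regions called higher in place of 3.35%. Between pan-BC and cones it called 46 regions in place of 27, with 41.6% called higher in place of 27.8%. For the ON-BC to OFF-BC regions edgeR called 9, and a pseudocount of 5 or separate cone levels gave 8. Under these settings, in that order, 5.07%, 5.34% and 4.58% of all regions were called higher and 3.44%, 1.26% and 2.80% lower. Leaving out 1 library gave 1 to 6, with 1 without OFF-BC replicate 1 and 2 without ON-BC replicate 2 or OFF-BC replicate 2, and 13 to 28 for pan-BC against cones, the lowest being 16 and 13 without pan-BC replicate 1 or 2. For pan-BC against rods the range was 37 to 48 around 47, where 31.8% to 40.1% of all regions were called higher. The ranges were 4 to 6 for partners, 8 to 8 for relatives, 10 to 10 for pan-BC against rods and against blue cones, 9 to 10 for OFF-BC against rods, 9 to 9 against blue cones, and 2 to 3 for rods against blue cones. The cause of these changes was not tested.

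ON-BC and OFF-BC libraries of the same number share an age, and their deviations from the group means correlated by -0.08, 0.22 and -0.06. The main fit did not take the numbers as pairs, though low correlations do not show that the libraries were unpaired. The block described next spans all populations and so does not model pairing of ON-BC with OFF-BC alone. With the replicate number as a block across all populations, 4 cascade genes, 4 partners and 8 relatives were called between ON-BC and OFF-BC. Of all genes, 2.96% were called higher and 3.59% lower. The block fit called 3 regions in place of 4 between ON-BC and OFF-BC, and for pan-BC 47 against rods and 27 against cones. Of all regions, 3.05%, 38.6% and 27.4% were called higher and 1.97%, 10.2% and 7.22% lower, in that order. In the same fit the block left 10 cascade genes called in pan-BC against rods and against blue cones, 9 in OFF-BC against each, and 2 between rods and blue cones. In that order, 27.7%, 22.5%, 26.9%, 21.6% and 4.56% of all genes were called higher and 15.7%, 13.5%, 15.5%, 13.5% and 11.2% lower. The depth limits low genes most, such as Lrit3 in ON-BC and Nyx in photoreceptors, where single libraries held a few reads.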
